A study of Sus scrofa with 4 samples.

Results

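Translation initiation factors (eIFs) were examined in porcine parthenogenetic 4-cell embryos cultured with Bobcat339, a cytosine-based compound used to inhibit the TET dioxygenases of 5-methylcytosine, or with the solvent DMSO. The genes were those whose symbol in the deposited table starts with EIF1 to EIF6, without the kinases named EIF2AK, and numbered 38 of 35248 rows. A further 13 rows had no symbol but carried an initiation factor in their description or Ensembl identifier, EIF4E among them, and are described beside the 38 so that each complex is whole, giving 51 rows. Bobcat339 embryos received 50 µM of the compound (2 libraries) and control embryos DMSO (2 libraries); DMSO is labelled with an inhibitor-like dose and is treated here as solvent. Embryos of both groups came from oocytes activated by an electric pulse with no sperm, were held for 3 h in 7.5 µg/mL cytochalasin B, which keeps the second polar body inside, and then spent 48 h in PZM-3 culture medium. They carry maternal genomes only, which limits them as a model of fertilised embryos, and how many embryos went into a library is not stated.

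Initiation brings the small ribosomal subunit, the initiator tRNA and an mRNA together at a start codon. eIF2 with GTP delivers the initiator tRNA and is recharged by its exchange factor eIF2B, eIF3 holds the small subunit and the mRNA, and eIF4F (the cap-binding protein eIF4E, the scaffold eIF4G and the helicase eIF4A) brings in the capped 5′ end. eIF1, eIF1A and eIF5 govern the choice of the start codon, and eIF5B joins the large subunit. Cleavage embryos depend at first on mRNA stored in the oocyte, and control of cap binding is a known step in the use of that store.

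The libraries held 13568525 to 14681221 counts. For a transcript with 0 counts, levels of up to 0.204 to 0.221 CPM (3 counts) cannot be told from absence; this limit covers counting error alone, since reads carry no molecular identifiers. Oocyte and embryo markers were abundant, with 6 of 8 listed genes matched and a summed level of 10270 and 11876 CPM in Bobcat339 libraries and 10122 and 11570 CPM in control libraries; BMP15 and WEE2 led them. Of 13 cumulus and granulosa markers 12 were matched, summing to 128 and 171 CPM in Bobcat339 and 129 and 145 CPM in control libraries; VCAN led this list, at 74.0 and 75.2 CPM in Bobcat339 and 56.0 and 82.7 CPM in control libraries, followed by VIM, at 27.4 and 55.1 CPM in Bobcat339 and 42.7 and 33.6 CPM in control libraries. AMH was at 0 in every library and FSHR at 0 in all but control 2 (0.0722 CPM), and the part of such cells in the results was not tested. Of 6 blood markers 5 were matched, summing to 7.63 and 12.4 CPM in Bobcat339 and 8.48 and 9.02 CPM in control libraries. The labels do not say that replicates came from separate cultures, so the spread behind the p-values is that between these libraries and may be technical.

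Between Bobcat339 and control embryos none of the initiation factor rows passed the test. Of the 38 rows with a symbol 37 could be tested, and 0 passed edgeR's quasi-likelihood test at a Benjamini-Hochberg adjusted p of 0.05, where 0% of all 18481 rows tested passed. At an unadjusted p under 0.05 there were 0 of the 37, where all rows tested gave 4%. DESeq2 and limma-voom also passed 0 of them and gave 0 at an unadjusted p under 0.05. Their median log2 fold change was −0.04, with 15 above 0 and 22 below, against a median of −0.02 over all rows tested. With the unsymbolled rows 48 were tested, 0 passed, and the median was −0.03 (20 above 0, 28 below); the edgeR adjusted p was 0.999 for each of the 48. Among them both Bobcat339 libraries lay above both controls for EIF1 and EIF4EBP3, 2 rows, where 13.3% of all rows tested did, and below both controls for EIF1AD, EIF2B1, EIF2D and EIF3I, 4 rows, where 16% did.

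**Figure D1:**
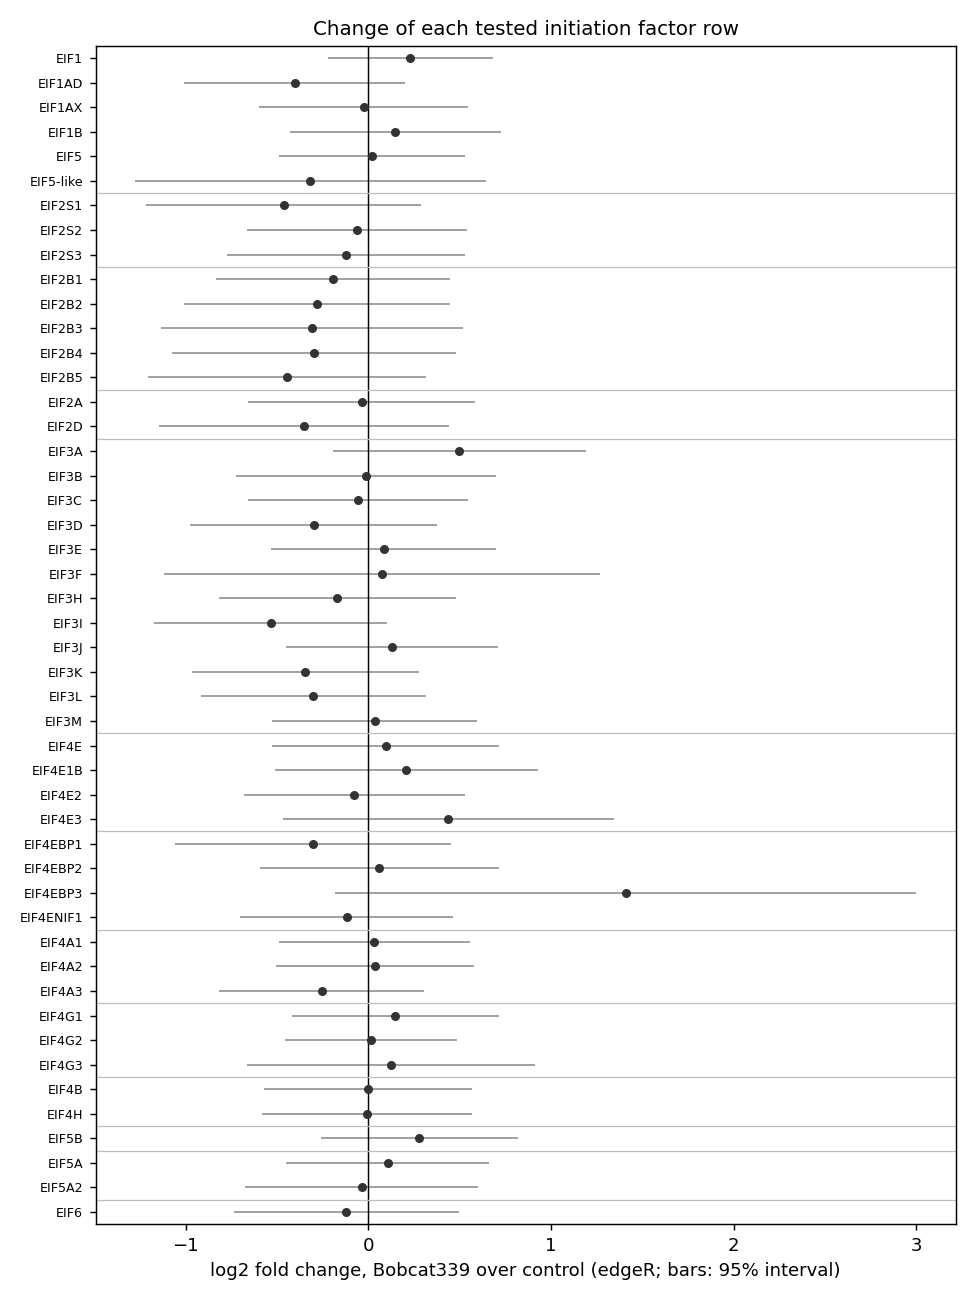
Log2 fold change of Bobcat339 over control with its 95% interval (edgeR, 2 libraries per group) for the 48 tested initiation factor rows, grouped by complex with grey lines between groups. Every interval crosses 0, and EIF4EBP3, the row with the fewest counts of those shown, has the widest.

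The transcripts ranged widely in the authors' FPKM. Comparisons of different genes per length here use these FPKM. The length behind many of them is not stated, and the order of genes can change with it. EIF1 was the most abundant, with 1842 and 2114 FPKM in Bobcat339 embryos and 1719 and 1593 FPKM in control embryos. It was followed by EIF4G2 (mean over the libraries 387 FPKM), EIF4A1 (292 FPKM), EIF3J (199 FPKM) and EIF4A3 (196 FPKM). Apart from the Y-chromosome rows at 0, EIF3G was the lowest (mean 0.0210 FPKM) and was not tested. The lowest tested rows were EIF4EBP3 (1.04 FPKM), EIF4G3 (1.56 FPKM), EIF3F (1.58 FPKM), EIF2D (1.71 FPKM) and EIF4E3 (1.72 FPKM). All rows with a symbol together held 0.835% and 0.859% of Bobcat339 counts and 0.900% and 0.686% of control counts, so the controls bracketed the Bobcat339 embryos. In bulk samples such as these, fewer cells of a type and less RNA per cell cannot be told apart.

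**Figure D2:**
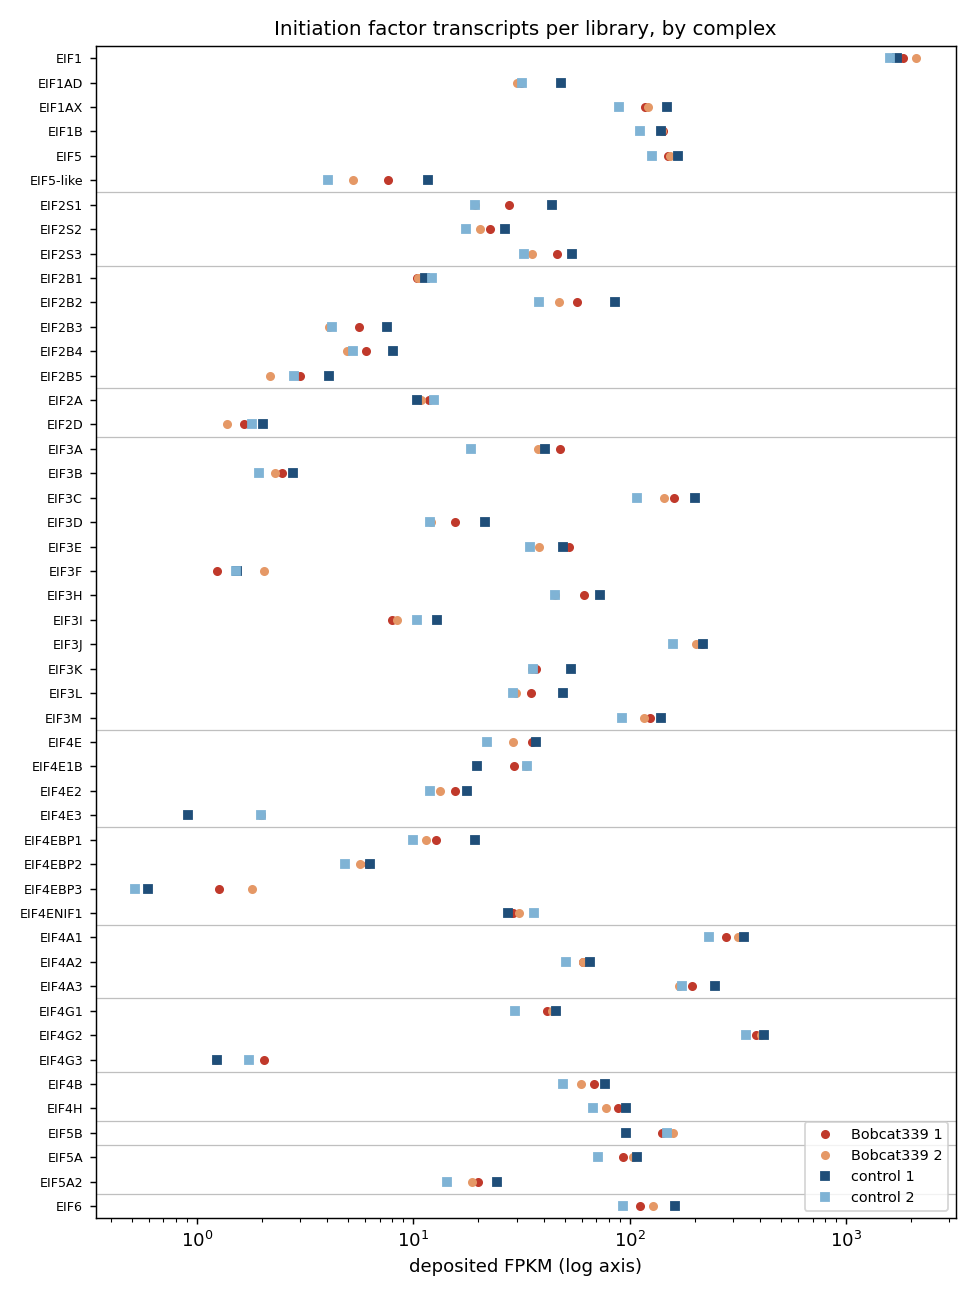
Deposited FPKM on a log axis for each initiation factor row with a mean above 0 other than EIF3G, grouped by complex, with 1 point per library (circles Bobcat339, squares control). EIF1 lies alone at the right end, at 1593 FPKM or more, and in most rows the dark square of control 1 is at the right and the pale square of control 2 at the left.

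Among the factors that govern start-codon selection, EIF1, which keeps the scanning ribosome open until a start codon is met, lay higher in both Bobcat339 libraries than in both controls without passing the test. EIF1 (chromosome 12: 20974494 to 20977075, minus strand) had 2411 and 2735 CPM in Bobcat339 embryos and 2321 and 2067 CPM in control embryos, where CPM are read counts scaled to library size and normalised between libraries. Its log2 fold change was 0.23 (SE 0.21; 95% interval −0.22 to 0.68; edgeR adjusted p = 0.999), a fold of 1.17. This was the narrowest interval of the 48 rows.

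EIF1AX (chromosome X: 16429518 to 16449589, minus strand), the X-linked gene for eIF1A, which occupies the aminoacyl site during scanning, had 537 and 546 CPM in Bobcat339 embryos and 699 and 404 CPM in control embryos. The Bobcat339 libraries were close to each other and lay between the controls. Its log2 fold change was −0.03 (SE 0.27; 95% interval −0.60 to 0.55; edgeR adjusted p = 0.999), and it was 0.42 without control 1 and −0.34 without control 2. EIF1AY, its counterpart on the Y chromosome, had 0 counts in all 4 libraries, as did a Y-chromosome row described as eIF2 subunit 3. EIF1AD, a nuclear protein with an eIF1A-like domain and no established part in initiation, had 123.6 and 117.7 CPM in Bobcat339 embryos and 195.2 and 124.0 CPM in control embryos, so that only control 1 stood apart (log2 fold change −0.40, 95% interval −1.01 to 0.20). The BANF1 row on the opposite strand overlaps EIF1AD and held 2643 and 2965 counts in Bobcat339 and 2422 and 2915 in control libraries. The library method does not mark the strand, so counting by strand could not separate reads in the overlap. How such reads were counted is not stated.

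EIF5, the GTPase activator of eIF2, was represented by an abundant row on an unplaced scaffold, with 790.1 and 803 CPM in Bobcat339 embryos and 909.8 and 662 CPM in control embryos (log2 fold change 0.02, 95% interval −0.49 to 0.53). A second row described as eIF5, on chromosome 6, had 8.79 and 5.97 CPM in Bobcat339 and 13.8 and 4.58 CPM in control embryos; the rows may share reads, and their split is uncertain. EIF1B, a near copy of EIF1, stood at 142.9 and 140.5 FPKM in Bobcat339 and 139.7 and 111.3 FPKM in control embryos, so EIF1 exceeded it 12.9-fold and 15.0-fold in the Bobcat339 libraries and 12.3-fold and 14.3-fold in the controls on the FPKM scale.

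The subunits of eIF2 and eIF2B had fold changes below 0 in Bobcat339 embryos, but none passed, and control 1 was the highest library in 7 of the 8 tested rows. EIF2S1 (chromosome 7: 91085301 to 91109851, plus strand) encodes the alpha subunit, whose phosphorylation by stress kinases slows initiation. It had 106 and 72.8 CPM in Bobcat339 embryos and 173 and 73.2 CPM in control embryos. Control 1 stood alone, and Bobcat339 2 and control 2 were nearly equal. For EIF2S1 the log2 fold change was −0.46 (SE 0.36; 95% interval −1.22 to 0.29; edgeR adjusted p = 0.999). Without control 2 it was −0.92 and passed (edgeR adjusted p = 0.0231), and without control 1 it was 0.29 and did not (edgeR adjusted p = 0.654). EIF2S2, the beta subunit, had a log2 fold change of −0.06.

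EIF2S3 lies on the X chromosome (20129713 to 20163070, plus strand) and encodes the gamma subunit that binds GTP and the initiator tRNA. It was the highest of the 3 in the deposited FPKM, at 45.9 and 35.4 in Bobcat339 and 54.2 and 32.5 in control embryos. The lengths behind these FPKM are not all stated, and the order of the 3 depends on them. EIF2S3 had a log2 fold change of −0.12 (95% interval −0.78 to 0.53). All 3 tested rows of eIF2 were below 0, with a median of −0.12. The median was 0.30 without control 1, −0.43 without control 2, −0.34 without Bobcat339 1 and 0.08 without Bobcat339 2.

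The eIF2B rows ranged widely in level within each library. EIF2B2, the beta subunit, had 57.1 and 47.3 FPKM in Bobcat339 and 85.7 and 38.1 FPKM in control embryos, while EIF2B5, the catalytic epsilon subunit, had 2.99 and 2.17 FPKM in Bobcat339 and 4.09 and 2.80 FPKM in control embryos. EIF2B2 (chromosome 7: 98203440 to 98210407, plus strand) had 110.5 and 90.5 CPM in Bobcat339 embryos and 171 and 73.0 CPM in control embryos, with both Bobcat339 libraries between the controls. EIF2B5 (chromosome 13: 122060362 to 122071779, plus strand) had 12.4 and 8.89 CPM in Bobcat339 embryos and 17.5 and 11.5 CPM in control embryos, and the groups overlapped. The log2 fold change was −0.28 for EIF2B2 (95% interval −1.01 to 0.45) and −0.45 for EIF2B5 (−1.21 to 0.31). EIF2B1, the alpha subunit, alone among the 5 had both Bobcat339 libraries below both controls, with 33.7 and 33.4 CPM in Bobcat339 and 37.5 and 39.0 CPM in control embryos (log2 fold change −0.19, 95% interval −0.83 to 0.45). The GTF2H3 row lies within EIF2B1 on the opposite strand, with 546 and 393 counts in Bobcat339 and 914 and 352 in control libraries. EIF2B1 held 494 and 458 counts in Bobcat339 and 524 and 545 in control libraries, and the part of the overlap was not tested. All 5 were below 0 with a median of −0.30, and 0 passed; the median was 0.07 without control 1 and −0.65 without control 2.

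EIF2A and EIF2D can place a tRNA at a start codon without eIF2. EIF2A (chromosome 13: 90761643 to 90806712, plus strand) had 58.0 and 52.2 CPM in Bobcat339 embryos and 52.6 and 60.4 CPM in control embryos, with overlapping groups and a log2 fold change of −0.04 (95% interval −0.66 to 0.59). EIF2D (chromosome 9: 67239419 to 67261976, minus strand) had 6.40 and 5.25 CPM in Bobcat339 embryos and 8.03 and 6.87 CPM in control embryos. Both Bobcat339 libraries of EIF2D lay below both controls, by less than the interval of its log2 fold change (−0.35, 95% interval −1.15 to 0.44; edgeR adjusted p = 0.999).

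The eIF3 complex had 13 rows, of which 12 were tested, and 0 passed; the median log2 fold change was −0.03, with 5 above 0 and 7 below. The median was 0.27 without control 1 and −0.33 without control 2. EIF3I, a WD-repeat subunit, had the smallest p of the complex. EIF3I (chromosome 6: 88695530 to 88708547, plus strand) had 39.8 and 41.3 CPM in Bobcat339 embryos and 66.1 and 51.3 CPM in control embryos, with no overlap between the groups. Its log2 fold change was −0.53 (SE 0.30; 95% interval −1.17 to 0.10; unadjusted p = 0.0954, edgeR adjusted p = 0.999), and it was −0.34 without control 1 and −0.67 without control 2.

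EIF3J, a loosely bound subunit that influences mRNA entry, had the highest deposited FPKM of the complex, an order that depends on the lengths used. EIF3J (chromosome 1: 126999571 to 127019139, minus strand) had 172 and 159.9 CPM in Bobcat339 embryos and 179 and 125 CPM in control embryos, with both Bobcat339 libraries between the controls (log2 fold change 0.13, 95% interval −0.45 to 0.71). EIF3A, the largest subunit and a scaffold of the complex, was chosen for description after its values were seen. EIF3A (chromosome 14: 128966336 to 129007234, minus strand) had 329 and 257 CPM in Bobcat339 embryos and 289 and 126 CPM in control embryos. Control 2 alone was low. The log2 fold change was 0.50 (SE 0.33; 95% interval −0.20 to 1.19; edgeR adjusted p = 0.999), and without control 1 it was 1.22 and passed (edgeR adjusted p = 1.49e-06), while without control 2 it was 0.05 (edgeR adjusted p = 0.932).

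Across the complex control 1 was the highest library in 9 of the 12 tested rows and control 2 the lowest in 9. The summed FPKM of the eIF3 rows was 762 and 674 in Bobcat339 embryos and 861 and 547 in control embryos. Among them EIF3C, which helps hold eIF1 on the small subunit, had 161 and 143 FPKM in Bobcat339 and 200.3 and 108 FPKM in control embryos. The lowest subunits per length were EIF3B (mean 2.37 FPKM), EIF3F (1.58 FPKM) and EIF3G (0.0210 FPKM). EIF3F, a subunit of the octameric core, had 19 and 29 counts in Bobcat339 libraries and 23 and 22 in control libraries. EIF3G, an RNA-binding subunit, had 1 and 2 counts in Bobcat339 libraries and 0 and 2 in control libraries and was not tested. The deposited row of EIF3G lies wholly within the row of P2RY11 on the opposite strand, which held 25 and 17 counts in Bobcat339 and 19 and 13 in control libraries; how reads in such overlaps were counted is not stated, and its part in the low EIF3G value was not tested.

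In the deposited FPKM the cap-binding proteins were led by the general factor EIF4E and by EIF4E1B, a form known from oocytes. Their order in these values changed between libraries. EIF4E (chromosome 8: 121409716 to 121466897, plus strand) had 219.9 and 179 CPM in Bobcat339 embryos and 238 and 136 CPM in control embryos. Its log2 fold change was 0.09 (SE 0.29; 95% interval −0.53 to 0.71; edgeR adjusted p = 0.999), with the Bobcat339 libraries between the controls. It was 0.55 without control 1 and −0.22 without control 2.

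EIF4E1B had the opposite order of the control libraries. It had 21.5 and 24.2 CPM in Bobcat339 embryos and 14.9 and 24.6 CPM in control embryos (log2 fold change 0.21, 95% interval −0.51 to 0.93). Of the summed FPKM of the 4 eIF4E genes, EIF4E1B made up 35.6% and 42.8% in Bobcat339 embryos and 26.1% and 48.4% in control embryos, and EIF4E 43.0% and 37.5% in Bobcat339 and 49.1% and 31.6% in control embryos. By the deposited FPKM, the leading cap-binding row differed between libraries of the same group. EIF4E led in Bobcat339 1 and control 1, and EIF4E1B in Bobcat339 2 and control 2. The row of EIF4E1B (chromosome 2: 81278159 to 81281225, minus strand) lies within that of CDHR2 on the same strand, so the 2 cannot be fully told apart. CDHR2 held 1089 and 1254 counts in Bobcat339 and 840 and 1332 in control libraries. EIF4E1B held 315 and 332 counts in Bobcat339 and 208 and 344 in control libraries. The shares and the order of EIF4E and EIF4E1B depend on how reads in the overlap were assigned, which is not stated.

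EIF4E2, a cap-binding homologue linked to translational repression, had 153 and 129 CPM in Bobcat339 and 181 and 117 CPM in control embryos (log2 fold change −0.08). EIF4E3 (chromosome 13: 53083645 to 53152333, minus strand), the least abundant of the family, had 6.20 and 6.12 CPM in Bobcat339 embryos and 2.94 and 6.16 CPM in control embryos. Control 1 alone was low, and control 2 matched the Bobcat339 embryos. The log2 fold change was 0.44 (95% interval −0.47 to 1.34; edgeR adjusted p = 0.999), 0.00 without control 1 and 1.10 without control 2.

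The proteins that hold eIF4E back are the 4E-BPs, which compete with eIF4G and are released on phosphorylation by mTOR, and the transporter EIF4ENIF1 (4E-T), a component of repressed RNA granules in oocytes. EIF4ENIF1 (chromosome 14: 48156841 to 48204338, minus strand) was the most abundant per length, at 28.8 and 30.9 FPKM in Bobcat339 and 27.5 and 36.3 FPKM in control embryos. EIF4ENIF1 had 104 and 110.5 CPM in Bobcat339 embryos and 103 and 130.4 CPM in control embryos, and its log2 fold change was −0.12 (95% interval −0.70 to 0.47). EIF4EBP1 had 23.6 and 20.9 CPM in Bobcat339 and 36.8 and 18.3 CPM in control embryos, and EIF4EBP2 43.7 and 39.8 CPM in Bobcat339 and 46.1 and 34.1 CPM in control embryos, with log2 fold changes of −0.30 and 0.06.

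EIF4EBP3 (chromosome 2: 142303859 to 142305716, plus strand) had the largest fold change of the 48 rows and few reads. It had 13 and 17 counts in Bobcat339 libraries and 6 and 5 in control libraries, or 0.886 and 1.24 CPM in Bobcat339 and 0.430 and 0.358 CPM in control embryos, and the groups did not overlap. The log2 fold change was 1.41 (SE 0.75; 95% interval −0.18 to 3.00; unadjusted p = 0.0792, edgeR adjusted p = 0.999). With each library left out in turn it was at up to 1.62. Both Bobcat339 libraries lay above both controls, so leaving any library out could not change the sign and does not test it. Both control counts were below the minimum count of the filter, and both Bobcat339 counts were above it. The row was therefore tested only through the group in which it was high. At this depth the size of the fold change is poorly fixed.

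**Figure D3:**
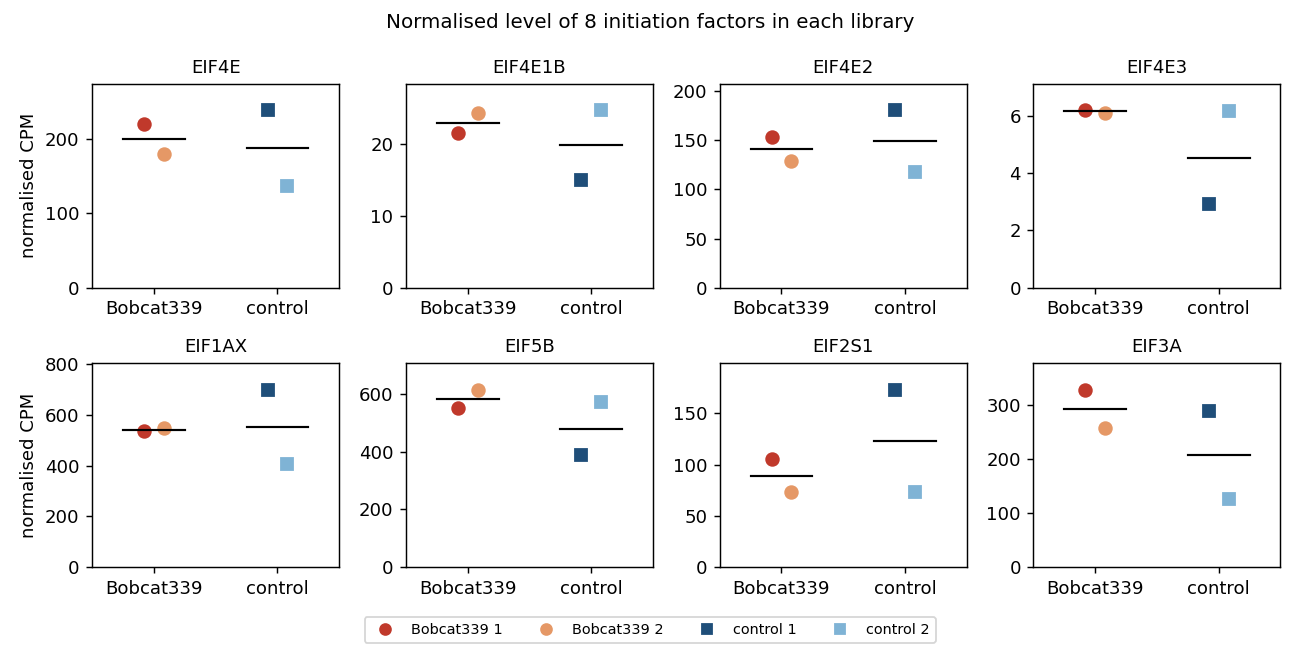
Normalised CPM of 8 initiation factors, with 1 point per library, Bobcat339 left of control and a black bar at each group's mean; every axis starts at 0. The control libraries lie farther apart than the Bobcat339 libraries in all 8 panels, with means for EIF1AX of 542 CPM in Bobcat339 and 551 CPM in control embryos.

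The eIF4A and eIF4G rows held both abundant and scarce transcripts, and none passed the test between the groups. EIF4A1 (chromosome 12: 52868366 to 52874874, plus strand), the main eIF4A, had 981 and 1095 CPM in Bobcat339 embryos and 1226 and 805 CPM in control embryos (log2 fold change 0.03, 95% interval −0.49 to 0.55). EIF4A2, its close paralogue, had 305 and 301 CPM in Bobcat339 and 340.1 and 251 CPM in control embryos (log2 fold change 0.04). In the deposited FPKM EIF4A1 exceeded EIF4A2 by 4.60-fold and 5.19-fold in Bobcat339 libraries and by 5.15-fold and 4.58-fold in control libraries. The groups overlapped in this ratio. The EIF4A1 row lies within that of KDM6B on the same strand, with 233 and 293 counts in Bobcat339 and 240 and 337 in control libraries.

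EIF4A3 (chromosome 12: 2285579 to 2311745, plus strand), a core protein of the exon junction complex more than an initiation factor, had 301 and 258 CPM in Bobcat339 embryos and 399 and 269 CPM in control embryos. EIF4A3 had a log2 fold change of −0.26 (95% interval −0.82 to 0.31; edgeR adjusted p = 0.999). EIF4A cofactors EIF4B and EIF4H, which stimulate the helicase, had log2 fold changes of −0.00 and −0.01. EIF4H (chromosome 3: 11321542 to 11348666, plus strand) had 239 and 208 CPM in Bobcat339 embryos and 269 and 180.5 CPM in control embryos, with both Bobcat339 libraries between the controls.

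EIF4G2 (chromosome 2: 48667694 to 48679368, plus strand), also called DAP5, lacks the eIF4E-binding site and serves initiation that does not use eIF4E. It was the leading scaffold, with 1787 and 1866 CPM in Bobcat339 embryos and 2025 and 1592 CPM in control embryos (log2 fold change 0.01, SE 0.22; 95% interval −0.45 to 0.48). EIF4G1 (chromosome 13: 122203528 to 122228792, plus strand), the general scaffold, had 395 and 412 CPM in Bobcat339 embryos and 449.6 and 279 CPM in control embryos (log2 fold change 0.15, 95% interval −0.42 to 0.71). In the deposited FPKM EIF4G2 exceeded EIF4G1 by 9.24-fold and 9.23-fold in Bobcat339 libraries and by 9.19-fold and 11.6-fold in control libraries. The size of this ratio depends on gene lengths that are not stated. EIF4G3 was scarce, at 2.04 and 1.23 FPKM in Bobcat339 and 1.23 and 1.74 FPKM in control embryos. Among the tested rows 2 pairs were neighbours: EIF2B5 and EIF4G1 lie 132 kb apart on chromosome 13, and EIF5A and EIF4A1 201 kb apart on chromosome 12.

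EIF5B (chromosome 3: 54863623 to 54930849, minus strand), the GTPase that joins the ribosomal subunits, ran against most other factors. It had 551 and 615 CPM in Bobcat339 embryos and 387 and 573 CPM in control embryos, so that control 1, which was high for most factors, was the lowest. Its log2 fold change was 0.28 (SE 0.26; 95% interval −0.26 to 0.82; edgeR adjusted p = 0.999), and it was 0.02 without control 1 and 0.62 without control 2 (edgeR adjusted p = 0.973 and 0.0595).

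EIF5A, which carries the modified residue hypusine and acts in elongation and termination as well as initiation, had 447 and 489.9 CPM in Bobcat339 embryos and 532 and 338 CPM in control embryos (chromosome 12: 52659007 to 52667663, plus strand; log2 fold change 0.11, 95% interval −0.45 to 0.66). EIF5A2, its paralogue, had a log2 fold change of −0.04. In the deposited FPKM EIF5A exceeded EIF5A2 by 4.71-fold and 5.54-fold in Bobcat339 and by 4.43-fold and 4.98-fold in control libraries. EIF6 (chromosome 17: 38637488 to 38643983, minus strand), which keeps free large subunits from joining, had 219.8 and 249 CPM in Bobcat339 embryos and 329 and 181 CPM in control embryos (log2 fold change −0.12, 95% interval −0.74 to 0.49). Both Bobcat339 libraries lay between the controls for EIF5A and for EIF6.

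The largest difference among these transcripts was between the controls. Control 1 was the highest library in 36 of the 48 tested rows (75.0%) and control 2 the lowest in 31 (64.6%), where over all rows tested the shares were 32.7% and 28.4%, and 40.4% and 38.5% over the 3967 rows with a mean of at least 50 CPM. The median difference of control 1 minus control 2 was 0.61 on the log2 scale over the 48 rows against −0.01 over all rows tested and 0.07 over those of at least 50 CPM. In absolute size the control difference exceeded that between the groups in 42 of the 48 rows (87.5%), in 67.7% of all rows tested and in 79.4% of those with a mean of at least 50 CPM. The control difference is between single libraries and the group difference between groups of 2. The first therefore varies more and is larger in most rows even with no effect of the compound. The median difference of Bobcat339 1 minus Bobcat339 2 was 0.13 over the 48 rows.

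Per complex, the score of a library was the median over rows of log2 CPM minus the row's mean. For eIF3 it was 0.08 and −0.14 in the Bobcat339 libraries and 0.37 and −0.31 in the controls, and for eIF2B 0.02 and −0.27 in the Bobcat339 libraries and 0.50 and −0.19 in the controls. EIF5B departed from this, at −0.43 in control 1 and 0.13 in control 2. In the cap-binding group the scores of the controls were −0.07 and −0.03 because members went both ways: control 1 minus control 2 was 0.80 for EIF4E and 0.62 for EIF4E2, but −0.71 for EIF4E1B and −0.95 for EIF4E3, on the log2 scale. EIF4E1B, EIF4E3, EIF4G3, EIF4ENIF1, EIF2A and EIF2B1 were likewise lower in control 1 than in control 2. Mitochondrially encoded rows took 4.93% and 4.02% of counts in Bobcat339 and 5.59% and 6.36% in control libraries, and the part of any such library property in these gaps was not tested.

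**Figure D4:**
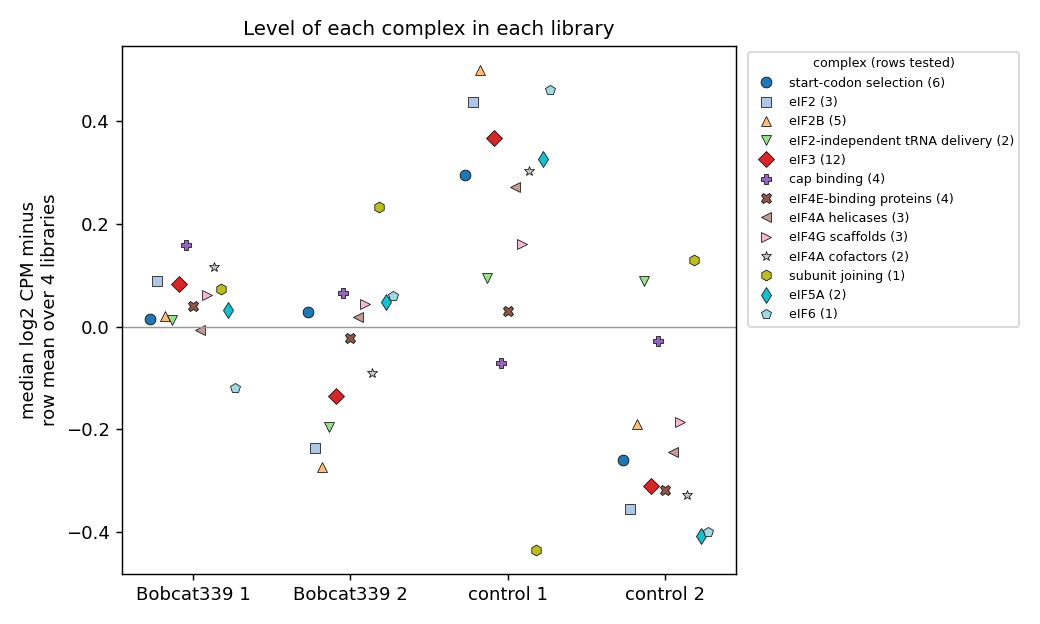
Score of each complex (median over its tested rows of log2 CPM minus the row's mean over the 4 libraries) in each library, with 1 symbol per complex. In control 1 most complexes lie above 0, with subunit joining (EIF5B) at −0.43, and in control 2 most lie below 0.

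**Figure D5:**
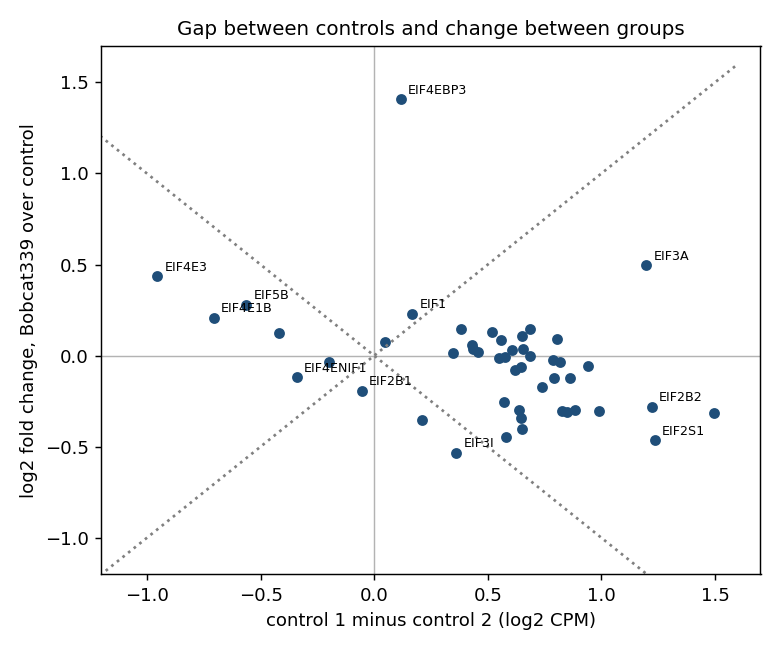
For each of the 48 tested rows, the log2 CPM of control 1 minus that of control 2 (horizontal axis) and the log2 fold change of Bobcat339 over control (vertical axis); dotted lines mark equal size. The 42 rows in the left and right sectors have a control gap larger than the group difference, and most lie at the right, where control 1 is higher. The gap is between single libraries and the group difference between groups of 2, so the gap varies more.

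Leaving out a control moved most of the rows, though not all in one direction. Without control 1 the log2 fold change was above 0 in 39 of the 48 rows with a median of 0.29, and without control 2 it was below 0 in 38 with a median of −0.24. These fits take the spread from the Bobcat339 pair, since 1 control is left. Of the 37 rows with a symbol, 1 passed as higher without control 1, EIF3A, where 2.03% of all rows tested passed as higher, and 1 passed as lower without control 2, EIF2S1, where 1.73% of all rows tested passed as lower.

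Partners of initiation, a list of kinases, phosphatases and mRNA-binding proteins, gave no call either. Of 33 genes 30 were tested and 0 passed, with a median log2 fold change of −0.12 (11 above 0, 19 below; −0.02 over all rows tested). The smallest p was that of PABPC1L, the poly(A)-binding protein of oocytes, with 2230 and 1942 counts in Bobcat339 and 2868 and 3061 in control libraries (log2 fold change −0.53, SE 0.26; unadjusted p = 0.0546, edgeR adjusted p = 0.999). The next were MLST8, a subunit of the mTOR complexes, with 18 and 7 counts in Bobcat339 and 27 and 19 in control libraries (−0.91), and MKNK2, a kinase of eIF4E, with 158 and 247 counts in Bobcat339 and 138 and 157 in control libraries (0.44). Both Bobcat339 libraries lay below both controls for 8 of 30 tested partners, PABPC1L and MLST8 among them, where 16% of all rows tested did. They lay above both controls for 1 partner, where 13.3% of all rows tested did. The kinases of eIF2 alpha had log2 fold changes of −0.68 (EIF2AK1, 19 and 6 counts in Bobcat339 and 20 and 19 in control libraries), −0.03 (EIF2AK2), 0.28 (EIF2AK3) and −0.29 (EIF2AK4). PPP1R15A, a regulatory subunit of the phosphatase that reverses them, was at 0.24.

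Elongation and termination factors showed the control gap as well. Of 19 genes 15 were tested and 0 passed, with a median log2 fold change of −0.15 (4 above 0, 11 below), and control 1 was the highest library in 13 of the 15. PELO, a ribosome rescue factor, had the smallest p, with 2724 and 2118 counts in Bobcat339 and 3869 and 3020 in control libraries (log2 fold change −0.54, SE 0.27; unadjusted p = 0.0588, edgeR adjusted p = 0.999). EEF1D, an exchange factor of elongation, followed with 560 and 320 counts in Bobcat339 and 877 and 341 in control libraries (−0.50), and EFL1, which releases eIF6 from new large subunits, with 31.2 and 19.7 CPM in Bobcat339 and 38.9 and 24.3 CPM in control libraries (−0.31). DHPS, which starts the hypusine modification of eIF5A, had 0 counts in all libraries. Rows overlapping DHPS were not examined, so the 0 in its row does not establish that the transcript was absent. DOHH, which completes the modification, had 2292 and 2532 counts in Bobcat339 and 3248 and 2019 in control libraries.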

How the data were processed

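For 4 Smart-seq2 libraries the authors deposited gene-level read counts, not normalised, and FPKM, per the file headers; Smart-seq2 is a method that does not mark the strand. HISAT2 2.0.5, HTSeq, Trimmomatic and DESeq2 1.16.1 were used in unstated roles, with Sscrofa10.2, per the submitters' processing notes. The deposited coordinates of all 38 rows with a symbol overlap the gene of that name in Sscrofa11.1 and are named as that build. The FPKM were compared with the deposited length column in rows of higher count only. There they followed it within 1% in only 35.3% of rows, averaged over the 4 libraries. The length behind the others is not stated, and the order of levels depends on it. Reads of near-identical copies and of overlapping genes cannot be told apart. Counts were tested with edgeR 4.0.16 in R 4.3.3 on all 4 libraries: filterByExpr with a minimum count of 10, TMM scaling, glmQLFit, glmQLFTest, and adjustment by Benjamini-Hochberg over the 18481 rows left, which hold 99.7% of counts; scripts were tested on simulated data. CPM are TMM-normalised, except the marker sums, which are per library total; score values use a prior of 0.5 CPM. The chi-square per gene between replicates was 12.8 for Bobcat339 and 48.9 for control, a spread beyond counting error, and each library was taken as 1 sample. These values do not show whether the replicates came from separate cultures. Alternatives were DESeq2 1.42.0, limma-voom (limma 3.58.1), other scalings and filters, log2(FPKM + 1) with limma, each library left out in turn, and a replicate block; the unsymbolled rows were added after the data were seen. Rows described per library were EIF1AX, EIF4E and, in each complex, the most abundant per length and the one with the smallest p, while other rows given with values were chosen after those values were seen. The genes and lists were chosen with earlier results of these data known. No sequences were used here.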

Additional observations from a re-analysis of the deposited data

How the results depend on the processing

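The count of all rows passing was 0 with edgeR, 5 with DESeq2 and 44 with the replicate block, and 0 to 586 with each library left out. The labels share replicate numbers but do not say that a number marks a shared batch, and with 2 pairs the numbers are not taken as a pairing (deviations of same-numbered libraries correlated at 0.188 across 18481 rows). With the replicate block 0 of the 37 symbolled rows passed and 1, EIF3A, had an unadjusted p under 0.05. With each library left out 0 to 1 of them passed, 0 to 13 had an unadjusted p under 0.05, and their median log2 fold change ranged from −0.24 to 0.27. The range of the median with a library left out was −0.43 to 0.30 for eIF2, −0.65 to 0.07 for eIF2B, −0.33 to 0.27 for eIF3, −0.21 to 0.27 for eIF4A, 0.11 to 0.22 for cap binding, −0.32 to −0.043 for EIF2A and EIF2D, −0.25 to 0.35 for EIF4B and EIF4H, −0.050 to 0.29 for the eIF4E-binding proteins, −0.12 to 0.20 for eIF4G, −0.26 to 0.45 for eIF5A, −0.46 to 0.37 for eIF6, −0.25 to 0.33 for start-codon selection and 0.025 to 0.62 for EIF5B. The cap-binding median was 0.21 with log2(FPKM + 1) and 0.21 for symbolled rows only, a setting added after the data were seen. Of 382 single-row values under settings that kept all libraries, 379 moved by less than the spread between replicates, against 144 of 192 with a library left out. That spread holds the gap between controls, so it is a wide yardstick for a change of scaling or filter. The log2 fold change took the other sign in 32 of the 382 values and in 54 of the 192. EIF4EBP3 fell to 0.69 on the log2(FPKM + 1) scale, which understates changes of low rows. There its unadjusted limma p was 0.00849, and it did not pass (limma adjusted p = 0.898). No scaling, DESeq2 size factors, both other filters and limma-voom left the count of symbolled rows passing at 0. Precision is limited by the 2 libraries per group and the gap between controls, and for EIF3F, EIF3G and EIF4EBP3 by few reads.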

Other observations

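Ratios of members within a library do not depend on the scaling between libraries, and several differed most between the controls. EIF5B over EIF1AX in FPKM lay at 1.31 in Bobcat339 2 and slightly below that in Bobcat339 1, against 0.648 and 1.65 in control libraries. EIF4E1B over EIF4E was 0.827 and 1.14 in Bobcat339 and 0.531 and 1.53 in control libraries, and EIF4ENIF1 over EIF4E 0.819 and 1.06 in Bobcat339 and 0.745 and 1.65 in control libraries. In each of these 3 ratios both Bobcat339 libraries lay between the controls. EIF4E2 over EIF4E, at 0.442 and 0.455 in Bobcat339 and 0.481 and 0.546 in control libraries, and EIF4EBP1 over EIF4E, at 0.362 and 0.392 in Bobcat339 and 0.520 and 0.451 in control libraries, were lower in both Bobcat339 libraries than in both controls. For comparison, 16% of all single rows tested had both Bobcat339 libraries below both controls, and 13.3% above both. Both of the ratios that lay lower share EIF4E as denominator, and more ratios were formed than are given in this section. In every other ratio formed the groups overlapped. The shares given for comparison are of single rows, and none was computed for ratios. The ratios were chosen after the values were seen and were not tested.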
